A study of Caenorhabditis elegans with 2 samples.

Results

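The genes described here set whether a C. elegans embryo develops as a hermaphrodite or a male and equalise X-linked expression between the sexes. They were chosen by name as a list of 10 genes, with earlier results of these data known: the switch gene xol-1, the sdc-1, sdc-2 and sdc-3 genes, dpy-21, the condensin subunit genes dpy-26, dpy-27, dpy-28 and mix-1, and the target gene her-1. They are 10 of the 19973 protein-coding genes on the nuclear chromosomes. For each gene, every peak was collected whose summit, the base of highest signal, lay in the gene body or within 5000 bp of it. Since the list was drawn up with these peaks in view, all counts and signals below are descriptions and no test was made.

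ChIP-seq, the sequencing of DNA recovered with a protein by immunoprecipitation, was performed on the protein made from K11D2.4. The worms were of strain RW12320, in which st12320, a CRISPR insertion of TY1, EGFP and 3xFLAG tags, is fused to K11D2.4, and the antibody recognised GFP. There was 1 group, of 2 biological replicates, each of whole young adults collected at an age of 62 h after synchronisation as starved first-stage larvae. All cell types of the animal were pooled, 1 tagged strain was used, the sex of the animals is not given in the labels, and the control library was not analysed here.

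In C. elegans, the ratio of X chromosomes to autosomes sets the activity of xol-1, which is on in XO embryos and off in XX embryos. Where xol-1 is off, SDC-2 acts with SDC-1 and SDC-3 to repress the male-determining gene her-1 and to bring a condensin complex, with DPY-21, to the X chromosomes, where it lowers transcription. The complex is first loaded at recruitment elements on X (rex sites), which carry short sequence motifs, among them the MEX motif that contains the letters GCGCAGG.

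The main peak list was the authors' conservative list of 1927 peaks from the pooled replicates, made at a threshold of the IDR (irreproducible discovery rate), which scores how alike the ranks of a peak are across replicates. Each replicate also had a thresholded list of its own, of 959 peaks in replicate 1 and 1141 in replicate 2, and a much longer ranked list of 41734 and 42705 peaks. Signal is the value that the authors deposited as the signal of each peak. Neither its scaling nor the read depth behind it is stated in the sources at hand. The main list had a median signal of 101, quartiles of 79.9 and 144 and a highest value of 1396. Signals and ranks are read within a list, since lists of different lengths are not comparable. The exceptions are a comparison at sdc-1, marked there, and the log2 ratio of replicate 1 to replicate 2. The ratio was taken from the signals in their ranked lists. Its median over all main peaks was 0.01.

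Of the 10 genes, 7 (70%) had at least 1 main peak in the window, as did 18.9% of all protein-coding genes. The genes without one were sdc-3, dpy-26 and her-1. The 10 main peaks fell into 7 sites, 1 for each of the 7 genes, because xol-1, sdc-1 and mix-1 each had a pair of close or overlapping peaks. The 7 sites differed widely in signal. The sites upstream of dpy-28 and xol-1 had signals of 1197 and 606, dpy-21 followed with 193, and sdc-2, mix-1, sdc-1 and dpy-27 lay between 78.9 and 127. The genes were long, with a median length of 7916 bp against 2027 bp for all protein-coding genes, so their windows covered more sequence. Among the 5903 genes of the members' length range, 3097 to 17179 bp, 24.3% had a main peak in the window. Of the genes on X, all 3 had a main peak against 24.3% of all genes on X, and of the autosomal ones 4 of 7 did against 18.0% of all autosomal genes.

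Most of these peaks lay outside the genes' own promoters, and a promoter peak was uncommon among all genes too. A main summit in the promoter, from 1000 bp upstream to 200 bp downstream of a transcript start, was found at sdc-2 alone, 1 of the 10 genes, against 5.77% of all protein-coding genes. One in the gene body was found at mix-1 alone, also 1 of 10, against 2.68% of all genes. At 5 of the 7 sites the nearest transcript start belonged to another protein-coding gene, and at xol-1 and sdc-2 it was the gene's own. Counted by nearest start, 2 of the 10 genes kept a peak within 5000 bp, against 7.17% of all genes.

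**Figure D1:**
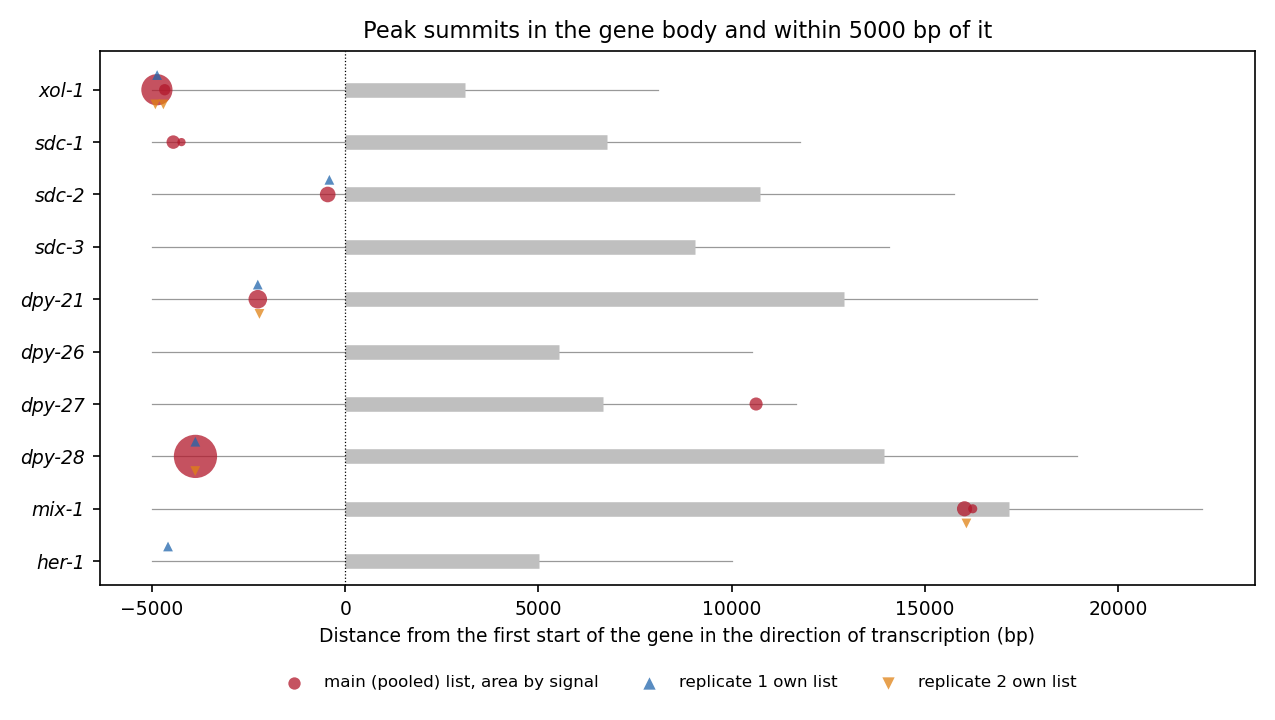
Position of peak summits (x axis, bp from the first transcript start in the direction of transcription) for the 10 genes (rows); grey bars are gene bodies, thin lines the 5000 bp on either side, circles main peaks with area growing with signal, and triangles the peaks of each replicate's thresholded list. The largest circles lie 3876 bp upstream of dpy-28 and 4874 bp upstream of xol-1, while sdc-3 and dpy-26 have no symbol and her-1 has a replicate 1 triangle only.

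The sequences around 6 of the summits are printed because they differ in letters and in setting: a repeated word at xol-1, letters of a tRNA promoter element at sdc-1 and mix-1, the strongest site at dpy-28, the only site in a member's own promoter at sdc-2, and a GC-rich site with repeated GAGAGA at dpy-21. They are the plus strand, 5′ to 3′, of up to 151 bases centred on the summit, in ce11 coordinates and read from the RefSeq sequence of WBcel235, with UTR bases left out. Capitals mark matches on either strand to any of the 5 words counted below.
xol-1 site, X:8036364-8036514: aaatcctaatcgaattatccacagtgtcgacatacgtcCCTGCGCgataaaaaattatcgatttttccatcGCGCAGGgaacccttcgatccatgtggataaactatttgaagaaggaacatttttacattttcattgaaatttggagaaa
sdc-1 site, X:16271238-16271388: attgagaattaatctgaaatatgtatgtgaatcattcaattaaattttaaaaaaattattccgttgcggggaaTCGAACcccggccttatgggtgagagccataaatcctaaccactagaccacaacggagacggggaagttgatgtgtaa
sdc-2 site, X:11522178-11522328: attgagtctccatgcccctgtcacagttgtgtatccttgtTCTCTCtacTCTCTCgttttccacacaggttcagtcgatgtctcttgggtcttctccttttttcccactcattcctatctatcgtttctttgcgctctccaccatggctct
dpy-21 site, V:17951381-17951531: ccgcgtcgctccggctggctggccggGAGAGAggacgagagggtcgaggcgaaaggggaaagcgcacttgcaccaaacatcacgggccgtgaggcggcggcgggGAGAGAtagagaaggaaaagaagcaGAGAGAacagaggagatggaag
dpy-28 site, III:10759180-10759306: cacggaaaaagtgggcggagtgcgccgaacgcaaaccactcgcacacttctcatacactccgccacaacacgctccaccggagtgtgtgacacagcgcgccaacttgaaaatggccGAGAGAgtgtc
mix-1 site, II:10840198-10840348: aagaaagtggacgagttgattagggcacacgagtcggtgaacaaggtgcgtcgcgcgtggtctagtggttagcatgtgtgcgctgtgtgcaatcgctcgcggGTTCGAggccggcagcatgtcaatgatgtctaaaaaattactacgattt
The capitals at xol-1 are the word GCGCAGG, on the minus and then the plus strand. Those at sdc-1 and mix-1 are GTTCGA, on the minus and the plus strand, and those at the other 3 are GAGAGA, on the minus strand at sdc-2.

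The xol-1 gene (X:8041313-8044409, plus strand) is the switch that, when active, sets male development. Its site was an intergenic main peak at X:8036187-8036824, with the summit 4874 bp upstream of the first transcript start. The signal was 296 in replicate 1 and 294 in replicate 2, where it ranked 34 and 25 in the replicates' thresholded lists. The replicates were close to equal, with a log2 ratio of replicate 1 to replicate 2 of 0.01. Its main signal of 606 ranked 29, within the top 1.5%. A second summit 4672 bp upstream, within the same peak ends, had a signal of 50.1. At 638 bp the peak was wide, since 8 of all main peaks (0.415%) were at least as wide. That count of 8 holds both xol-1 entries, which share these ends. The next nearest protein-coding start, that of C34D10.1, was 6960 bp from the summit, and the nearest noncoding gene was the ncRNA C18A11.13 at 235 bp. No ranked peak of either replicate lay in the promoter of xol-1 itself, while the pooled ranked list held a peak there with a signal of 34.1, 149 bp downstream of the start.

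The word GCGCAGG occurred at the xol-1 site and at none of the other 6 sites, within 150 bp of the summit on either strand. It occurred within that distance of 60 of the 1927 main peaks (3.11%). Its 2 copies at xol-1 were inverted, on the minus strand at position 8036402 and the plus strand at 8036435, 33 bp apart. Across main peaks, the word was within 150 bp of the summit at 34 of 433 peaks on X (7.85%) and at 26 of 1494 peaks on the autosomes (1.74%). The word itself was about as frequent on X as on the autosomes, with 20.1 and 19.9 matches per Mb.

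Both copies at xol-1 lay in the same run of 12 letters, atcGCGCAGGga, which was read off this site and then sought in the genome. The run occurred 10 times on X and 1 time on the autosomes, at 8 places on X and 1 on chromosome V. All 8 places on X, the xol-1 site included, had a main summit within 150 bp, and the place on V had none. All 8 also had a peak in both replicates' thresholded lists, and 7 of them were among the 100 highest main peaks. The xol-1 place is in these counts by construction, since the run was read off its peak. X held 433 main peaks, but how much of X lies within 150 bp of a main summit was not computed. No background share therefore stands beside the count of 8 places. The shorter word GCGCAGG had 357 matches on X, and 34 main peaks on X had it within 150 bp. These values count matches and peaks, not places, so they are no direct counterpart of the 8 places. The letters of all places that hold the run are shown, 30 bases at each, read along the strand of the run, with GCGCAGG in capitals. Where a place holds 2 copies, the first is shown.
xol-1 site, X:8036391-8036420, minus strand: taattttttatcGCGCAGGgacgtatgtcg
place nearest to Y41G9A.17, X:2997113-2997142, minus strand: tttaaatttatcGCGCAGGgaggaagtagc
place nearest to F20B6.9, X:4209256-4209285, minus strand: attgccgctatcGCGCAGGgacacctcttt
place nearest to cest-16, X:6296564-6296593, plus strand: tagataggtatcGCGCAGGgaagatttacc
place nearest to W02H3.3, X:11094115-11094144, minus strand: acgttttatatcGCGCAGGgagcttatgca
place nearest to col-185, X:13514546-13514575, plus strand: gatacctttatcGCGCAGGgatattgaaat
place nearest to nspc-17, X:14525890-14525919, minus strand: ctattgcctatcGCGCAGGgacagatgtgg
place nearest to F22H10.2, X:16682162-16682191, minus strand: caagaaaacatcGCGCAGGgaacatcaaat
place nearest to pgph-1, V:5751441-5751470, plus strand: ggttttgaaatcGCGCAGGgaagacttggg
These places are named by the protein-coding gene whose start was nearest.

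The xol-1 site was the seventh in signal of the 8. The main peak near W02H3.3 had the highest signal, 918 at rank 5, with 508 in replicate 1 and 391 in replicate 2. The peak near nspc-17 had 844 at rank 8, the one near cest-16 had 768 at rank 14, and the one near F20B6.9 had 738 at rank 17. The peaks near Y41G9A.17 and F22H10.2 had 649 and 613, at ranks 21 and 27. The lowest was near col-185, with 216 at rank 209, 118 in replicate 1 and 87.1 in replicate 2. That main peak was 81 bp wide, against 315 to 638 bp for the others, and did not cover the run. It spanned X:13514584-13514664, whereas the run began at X:13514555. At the other places on X the main peak covered the run. Near pgph-1 on V, the run was covered by a ranked peak of signal 18.2 in replicate 2 and by none in replicate 1. A match in letters is a description and does not show which factor binds there.

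The sdc genes encode the proteins that start hermaphrodite development, and SDC-2 directs the complex to X. At sdc-2 (X:11522707-11533450, plus strand) the main peak at X:11522091-11522414 had its summit 454 bp upstream of the start, in the gene's own promoter. The signal was 75.8 in replicate 1, rank 425 of its thresholded list, and 56.8 in replicate 2, in the ranked list only. Replicate 1 was higher, with a log2 ratio of 0.42, about 1 SD of the ratios of all main peaks (median 0.01, SD 0.41). The pooled signal of 127 ranked 620 among the main peaks.

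At sdc-1 (X:16275763-16282534, plus strand), which encodes a zinc finger protein, the summit lay 4450 bp upstream and 1244 bp upstream of the start of ifa-3, an intermediate filament gene. It fell inside an annotated tRNA gene that overlaps the ncRNA F52E10.7, in an intron of the antisense RNA W10G6.5. The signal was 44.6 in replicate 1 and 34.4 in replicate 2, in both cases in the ranked list only. Across lists, both ranked-list values were below the median signal of the replicates' thresholded lists, 71.4 and 68.5. In the main list the site had 86.1 at rank 1273, and a second, overlapping peak had 10.6. The site was absent from the second pooled thresholded list.

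The sdc-3 gene (V:15039148-15048207, minus strand) encodes a zinc finger protein needed for both the sex and the dosage compensation functions. It had the emptiest window of the 10 genes, with no ranked peak in replicate 1, 3 in replicate 2, and none in the pooled ranked list. Those 3 peaks correspond to 1.57 per 10 kb, against 4.26 per 10 kb over the genome, and the highest had a signal of 26.3 at 1415 bp upstream. An empty window in replicate 1 was shared by 1479 of all protein-coding genes (7.40%). That share is not matched for length: the median gene has 2027 bp, against 9060 bp for sdc-3.

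The dpy-21 gene (V:17936282-17949193, minus strand) encodes a histone demethylase that acts on methylated lysine of histone H4. Its site at V:17951294-17951617 was intergenic, 2263 bp upstream of dpy-21 and 493 bp upstream of Y59A8B.24, whose start was the nearest. The signal was 79.5 in replicate 1 and 102 in replicate 2, ranks 394 and 238 of the thresholded lists. Replicate 2 was the higher, with a log2 ratio of -0.37. Among the main peaks it had 193 at rank 267.

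Among the condensin genes, dpy-28 (III:10763131-10777076, plus strand) had the strongest site of all 10 genes. DPY-28 is a subunit that the dosage compensation complex shares with a mitotic condensin. The main peak at III:10759094-10759438 had a signal of 600 in replicate 1 and 593 in replicate 2, ranks 3 and 2 of their thresholded lists. The replicates were nearly equal, with a log2 ratio of 0.02. Its pooled signal of 1197 ranked 3 among the main peaks, within the top 0.156%. The summit was 3876 bp upstream of dpy-28 but 52 bp upstream of tasp-1, a taspase homologue, 733 bp upstream of K01G5.10 and 1615 bp upstream of rnf-113. No ranked peak of either replicate lay in the promoter of dpy-28 itself. Just past the promoter's 200 bp edge, replicate 2 had a ranked peak of signal 45.4, 241 bp downstream of the start.

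The dpy-27 gene (III:3813018-3819679, minus strand) encodes the SMC subunit particular to the dosage compensation condensin. Its main peak at III:3808884-3809207 lay 3972 bp beyond the 3′ end of the gene and 16 bp upstream of toh-1, an astacin metalloprotease gene. The signal was 40.2 in replicate 1 and 35.6 in replicate 2, in the ranked lists only. In the main list it had 78.9 at rank 1467, and the second pooled thresholded list did not hold it. The own promoter of dpy-27 had a ranked peak with a signal of 23 in replicate 1 and 43.6 in replicate 2, and neither reached the thresholded lists.

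The mix-1 gene (II:10824246-10841424, plus strand) encodes the SMC subunit common to all condensins of the worm. Its site at II:10840111-10840434 was in an intron near the 3′ end, 16027 bp from the start and 44 bp from the snoRNA gene M106.6. The signal was 54.2 in replicate 1, in the ranked list only, and 51.9 in replicate 2, rank 928 of its thresholded list. The summit in replicate 2 lay inside M106.6. The values were close, with a log2 ratio of 0.06. In the main list the site had 117 at rank 725, and an overlapping peak in the coding exon had 20.5. The next main peak outside the window was 9882 bp from the gene, with a signal of 100, nearest to M106.2. It was the only main peak between 5000 and 10000 bp from any of the 10 genes. The farthest inside were those of xol-1, at 4874 and 4672 bp, and of sdc-1, at 4450 and 4238 bp.

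The dpy-26 gene (IV:12445801-12451335, minus strand) encodes the condensin subunit that links the SMC heads. It had 8 ranked peaks in the window in each replicate and none in a thresholded list. The highest had a signal of 29.4 in replicate 1, in the gene body at 1431 bp from the start, and 26.5 in replicate 2, just past the gene's end.

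The her-1 gene (V:9697015-9702035, plus strand) encodes a secreted protein that sets male fate and is the autosomal target of SDC repression. It had no main peak. Replicate 1 alone had a thresholded peak there, at V:9692281-9692576, with a signal of 55.6 at rank 786. Its summit was 4586 bp upstream of her-1 and 270 bp upstream of ztf-9, a zinc finger gene. In replicate 2 an overlapping peak of signal 32.7 was in the ranked list only, and the pooled ranked list had no peak that overlapped it.

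**Figure D2:**
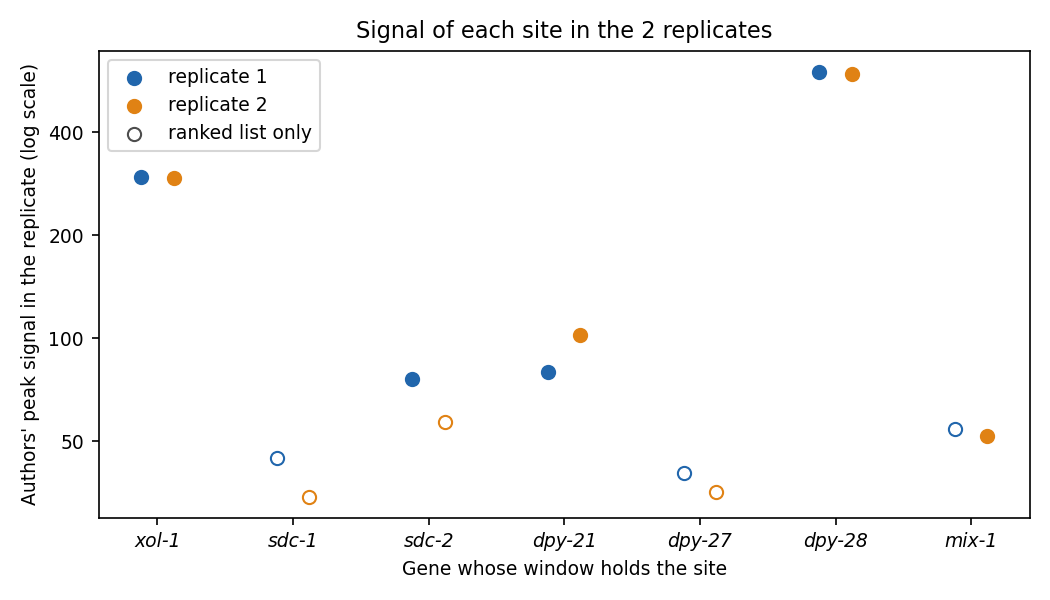
Authors' peak signal (y axis, log scale) at each of the 7 sites (x axis, named by gene) in replicate 1 and replicate 2; filled points are in the replicate's thresholded list and open points in its ranked list only. The dpy-28 site stands at 600 and 593 and the xol-1 site at 296 and 294, while both points of sdc-1 and dpy-27 are open.

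The sites fell into 3 classes by their replicate lists. Those of xol-1, dpy-21 and dpy-28 were in both thresholded lists, 3 of 7 sites, as were 705 of all 1927 main peaks (36.6%). Those of sdc-2 and mix-1 were in 1 thresholded list each, and those of sdc-1 and dpy-27 in none. All 7 had a ranked peak in both replicates, as did 1904 of all 1927 main peaks. The log2 ratios of replicate 1 to replicate 2 ran from -0.37 to 0.42. With her-1 counted, 5 of the 10 genes had a replicate 1 thresholded peak in the window, against 11.4% of all protein-coding genes, and 4 had a replicate 2 peak, against 13.1%.

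**Figure D3:**
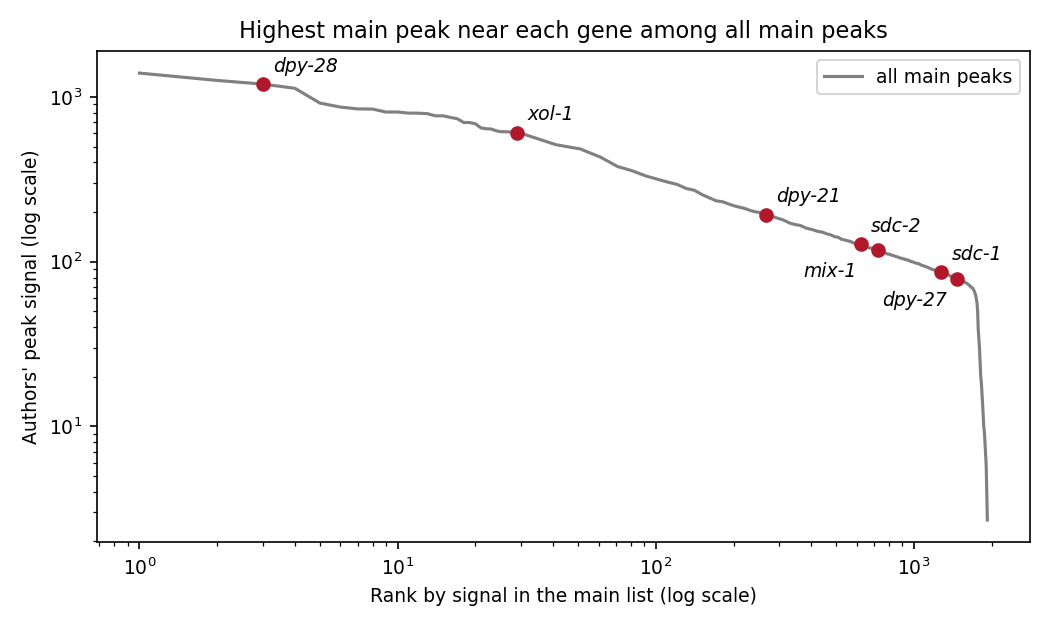
Authors' peak signal (y axis, log scale) against rank in the main list (x axis, log scale); the grey line is the main list, drawn through a thinned set of ranks, and points are the highest main peak near each of the 7 genes. The dpy-28 and xol-1 sites, at ranks 3 and 29, lie at the top of the list, and sdc-1 and dpy-27, at ranks 1273 and 1467, lie in its lower part, above the final drop in signal.

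In the genes' own promoters, a ranked peak was present at 4 of the 10 genes in replicate 1, against 45.0% of all protein-coding genes, and at 6 in replicate 2, against 46.2%. The highest was that of sdc-2, described above. At mix-1 it was 38.6 in replicate 1 and 26.6 in replicate 2, and at dpy-26 it was 20 and 15.8. At sdc-1 and her-1 replicate 1 had none, and replicate 2 had 36.2 and 33. Over all genes with such a peak, the median was 22.5 in replicate 1 and 21.2 in replicate 2, and the upper quartile was 30.2 and 29.4. The peaks at dpy-26 were below the median in both replicates, and those at sdc-1, sdc-2, dpy-27, mix-1 and her-1 were above it wherever present. The promoters of xol-1, sdc-3, dpy-21 and dpy-28 had none in either replicate.

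**Figure D4:**
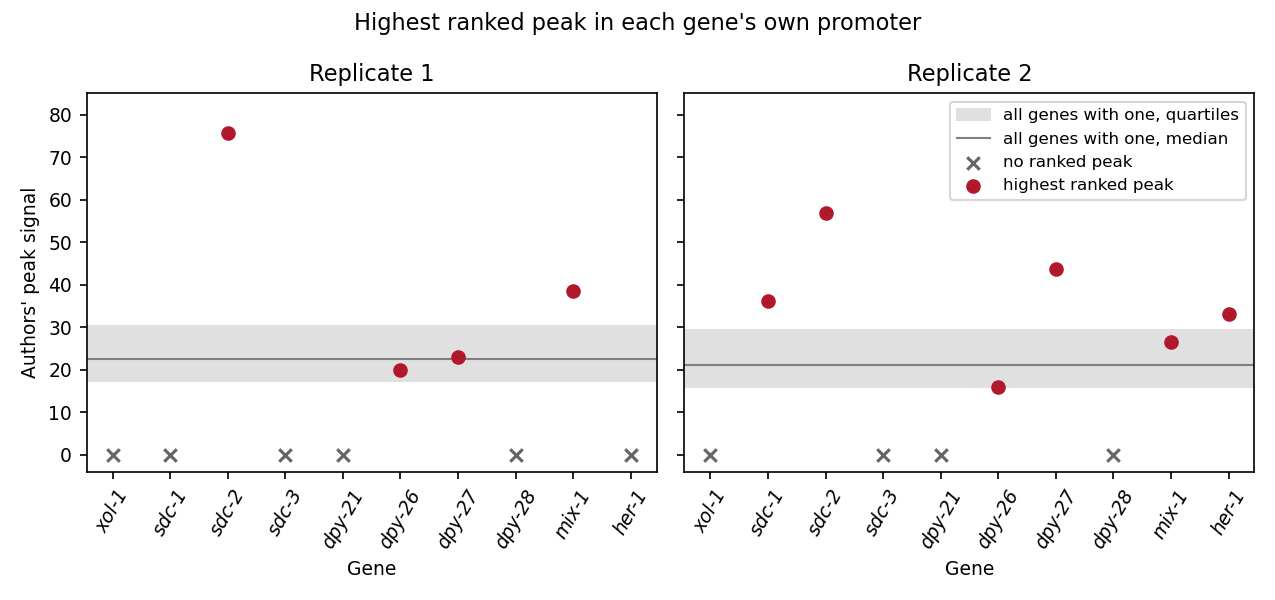
Highest ranked peak in each gene's own promoter (y axis, authors' signal) for the 10 genes (x axis) in replicate 1 and replicate 2; crosses at the bottom mean no ranked peak, and the grey band and line are the quartiles and median over all protein-coding genes that have one. The sdc-2 points, at 75.8 and 56.8, are the highest in both panels.

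In base composition and words the 7 sites were not alike. The GC content of the central 101 bp was 60.4% at dpy-21 and at mix-1 and 56.4% at dpy-28, above the median of 48.5% over all main peaks. It was 43.6% at sdc-2, 41.6% at xol-1, 39.6% at sdc-1 and 35.6% at dpy-27, below that median. At dpy-27 the centre was poorer in GC than its flanks, which had 40%, while the other 6 were richer than theirs. The word GAGAGA was within 150 bp of the summit at 5 of the 7 sites, all but xol-1 and mix-1, and at 43.4% of all main peaks. ACGCAG was at sdc-2 and dpy-27, 2 of 7 sites against 25.7% of main peaks. CGCAGA, which overlaps ACGCAG by its letters, was at dpy-27 alone, against 25.9%. GTTCGA, which belongs to the B box of tRNA genes, was at sdc-1 and mix-1, against 15.6%, and was sought only after the sequences had been seen. At sdc-1 this was within the annotated tRNA gene, whereas the mix-1 match was in the intron, where the annotation used here has no tRNA gene at the summit.

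Other genes of the pathway were taken from a list by role, of which 42 matched the annotation. Of these, 12 (28.6%) had a main peak in the window, against the 18.9% of all protein-coding genes given above, and 3 (7.14%) had one in the promoter, against 5.77% of all protein-coding genes. Among the genes listed as partners of dosage compensation 1 of 5 had a main peak in the window: set-4, a histone H4 methyltransferase gene, with 154 at 231 bp upstream. None of the 3 genes listed as other condensin subunits did. Nor did the condensin subunit gene smc-4, which the list held among the partners. Among X signal elements, which repress xol-1, 1 of 3 did: ceh-39, a homeobox gene, with 138 at 2673 bp upstream, nearer to the start of T26C11.8. Among autosomal signal elements, which activate it, 1 of 2 did: sea-2, a zinc finger gene, with 114 at 3358 bp upstream. Further down the sex determination pathway, 6 of 11 genes had a peak and none had it in the promoter. The highest there was at sup-26, an RNA-binding protein gene, with 422 at 1893 bp upstream, followed by laf-1, tra-2 and cul-2 with 110, 108 and 93. For these last 3 the nearest start was another gene's, swsn-3, ceh-38 and cyn-2. Among germline sex genes 3 of 15 did. The RNA helicase gene mog-4 had 798, rank 11, at 270 bp upstream, and atx-2, an ataxin-2 homologue, had 234 at 51 bp upstream, both in their own promoters. The third, mog-3, had 85.4, nearer to pqe-1. None of the 3 sex-specific target genes had a main peak.

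**Figure D5:**
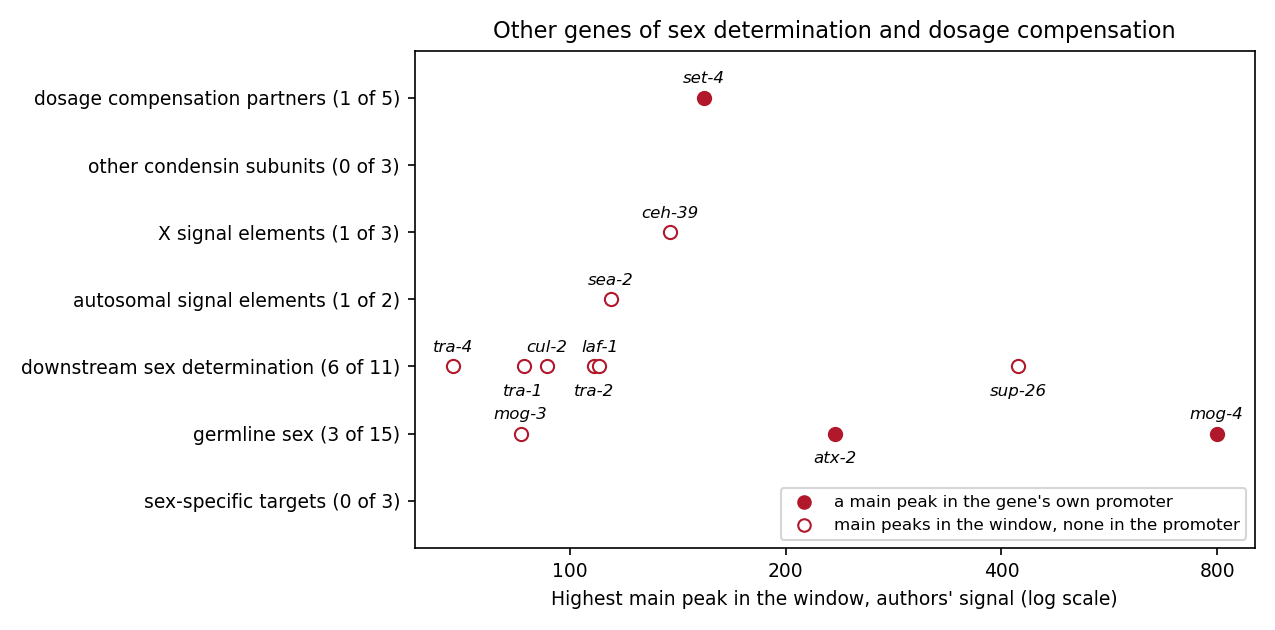
Highest main peak in the window (x axis, authors' signal, log scale) for the other genes of the pathway, by role (y axis, with the number of genes that have one); filled points have a main peak in the gene's own promoter. The mog-4 point, at 798, is the highest, and no downstream sex determination gene has a filled point.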

How the data were processed

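ChIP-seq of tagged K11D2.4 was analysed from 7 peak lists on ce11, per the labels: each replicate's thresholded and ranked lists, and 2 thresholded and 1 ranked list of the pooled replicates. The aligner, caller and versions were not given in the sources used here. The signal of each peak was used as the authors deposited it. The deposited score is a whole number of at most 1000 that the authors' IDR ranking gave, and the lowest in the main list was 830. Main peaks can overlap (344, or 17.9%, overlap another), so peaks of a gene were joined into a site and described by the highest.

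Summits were set against Ensembl release 115 genes of WBcel235 with Python 3.11.15 and numpy 2.4.6, and plotted with matplotlib 3.10.9. Peaks were matched between lists by an overlap of at least 1 bp. Words were counted within 150 bp of the summit on both strands. Assignment was tested on simulated data. The members and lists were chosen with earlier results of these data known. All 10 members, their peaks, the nearest neighbouring start, and up to 4 genes with the highest peak of each role are named. GTTCGA, the run of 12 letters and the places that hold it were chosen after the sequences were seen. From the pathway list, sex-2, sea-3 and mog-6 were not matched in the annotation and were not used.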

Additional observations from a re-analysis of the deposited data

How the results depend on the processing

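The choice of window and list moved the counts. Requiring a main peak to be in both replicates' thresholded lists left 3 genes with 4 peaks, against 8.56% of all protein-coding genes, 5 pathway genes, and 0 genes with a promoter peak. With 1 replicate left out, so that the other's own thresholded list was used, 4 to 5 of the 10 genes had a peak, with 5 peaks in either case, against 11.4 to 13.1% of all genes, 5 to 8 pathway genes, and 0 to 1 genes with a promoter peak: that of sdc-2 was lost without replicate 1. A window of 1000 bp left 2 genes with 3 peaks, against 9.24% of all genes, and 7 pathway genes. A window of 2000 bp left 2 genes with 3 peaks, against 11.8%. With a window of 10000 bp, 28.7% of all genes had a peak. Counting by the nearest start left 2 genes with 3 peaks, against 7.17%, and 6 pathway genes. Main peaks at or above the median signal left 5 genes with 5 peaks, and 12% of all genes had one. The second pooled thresholded list gave 5 genes with 7 peaks, without sdc-1 and dpy-27, against 19.6% of all genes. In the ranked lists all 10 member peaks were found in both replicates, against 4 in the thresholded lists. Of all 1927 main peaks, 1904 had a ranked peak in both replicates. Within 50 bp of the summit, CGCAGA was at 0 of the 7 sites, against 13.2% of all main peaks, and ACGCAG at 0, against 14.1%. GAGAGA was at 3 sites, against 22.3%, GCGCAGG at 1, against 1.87%, and GTTCGA at 2, against 6.54%. No paired analysis was possible because there was 1 group. The read depth behind each peak is unknown, so no counting interval is given.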
